A study of Mus musculus with 72 samples.

Results

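The 9 genes described here form the growth hormone signalling axis of liver: the receptor Ghr, the kinase Jak2, the transcription factors Stat5a and Stat5b, the hormone products Igf1 and Igfals, the feedback inhibitors Socs2 and Cish, and the repressor Bcl6. They were chosen by name for their place in the pathway, with earlier results of these arrays known, and all 9 were among the 19938 genes tested. Each gene was read from the probe set with 1 gene symbol that had the highest mean over all arrays. Liver RNA came from 72 male wild-type mice, housed singly and random-fed at sampling, of 4 inbred strains, 129P2/OlaHsd (129), C57BL/6J (B6J), C57BL/6NTac (B6N) and C3HeB/FeJ (C3H). Mice on the high-fat diet (HFD) had received it for 21 days and were 17 weeks old: 7 in 129, 8 in B6N, 7 in B6J and 8 in C3H. Controls numbered 8, 8, 8 and 18 in the same order and carried the treatment label none, while the feeding protocol names a low-fat diet of at most 21 days for controls. They were 17 weeks old in 129 and 15 to 17 weeks old in the other strains, so age went partly with diet there. The comparison asks whether HFD changed the axis in each strain, and how its genes varied among mice of 1 strain and diet.

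Growth hormone from the pituitary binds the receptor encoded by Ghr on hepatocytes, which activates the attached kinase JAK2. JAK2 phosphorylates STAT5A and STAT5B, which enter the nucleus and raise transcription of Igf1, Igfals, Socs2 and Cish. The SOCS2 and CISH proteins dampen the receptor's signal, and BCL6 is a repressor that can occupy STAT5 sites and whose own gene is repressed by growth hormone in liver. In male rodents growth hormone is secreted in pulses, and the pattern of secretion sets much of the difference between male and female liver.

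Values are log2 array signals, in which 1 unit is a 2-fold difference. The array medians fell into 3 separate ranges, the highest for 129 (6.46 to 6.65), the next shared by both B6 strains (4.51 to 4.67) and the lowest for C3H (3.1 to 3.28), so levels were compared only within a range. All 9 hepatocyte markers measured lay above the array median in every group. Markers of pancreatic acinar cells varied most between livers, with a mean over 14 genes of 4.99 to 11.5 among B6J controls, and their part in the results was tested only as a covariate of the diet effects. In whole liver, fewer cells of a type and less RNA per cell cannot be told apart. The mean level of each of the 9 genes lay above its array medians in all 8 groups, by 0.41 (Cish in C3H HFD livers) to 6.79 (Ghr in C3H controls).

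**Figure D1:**
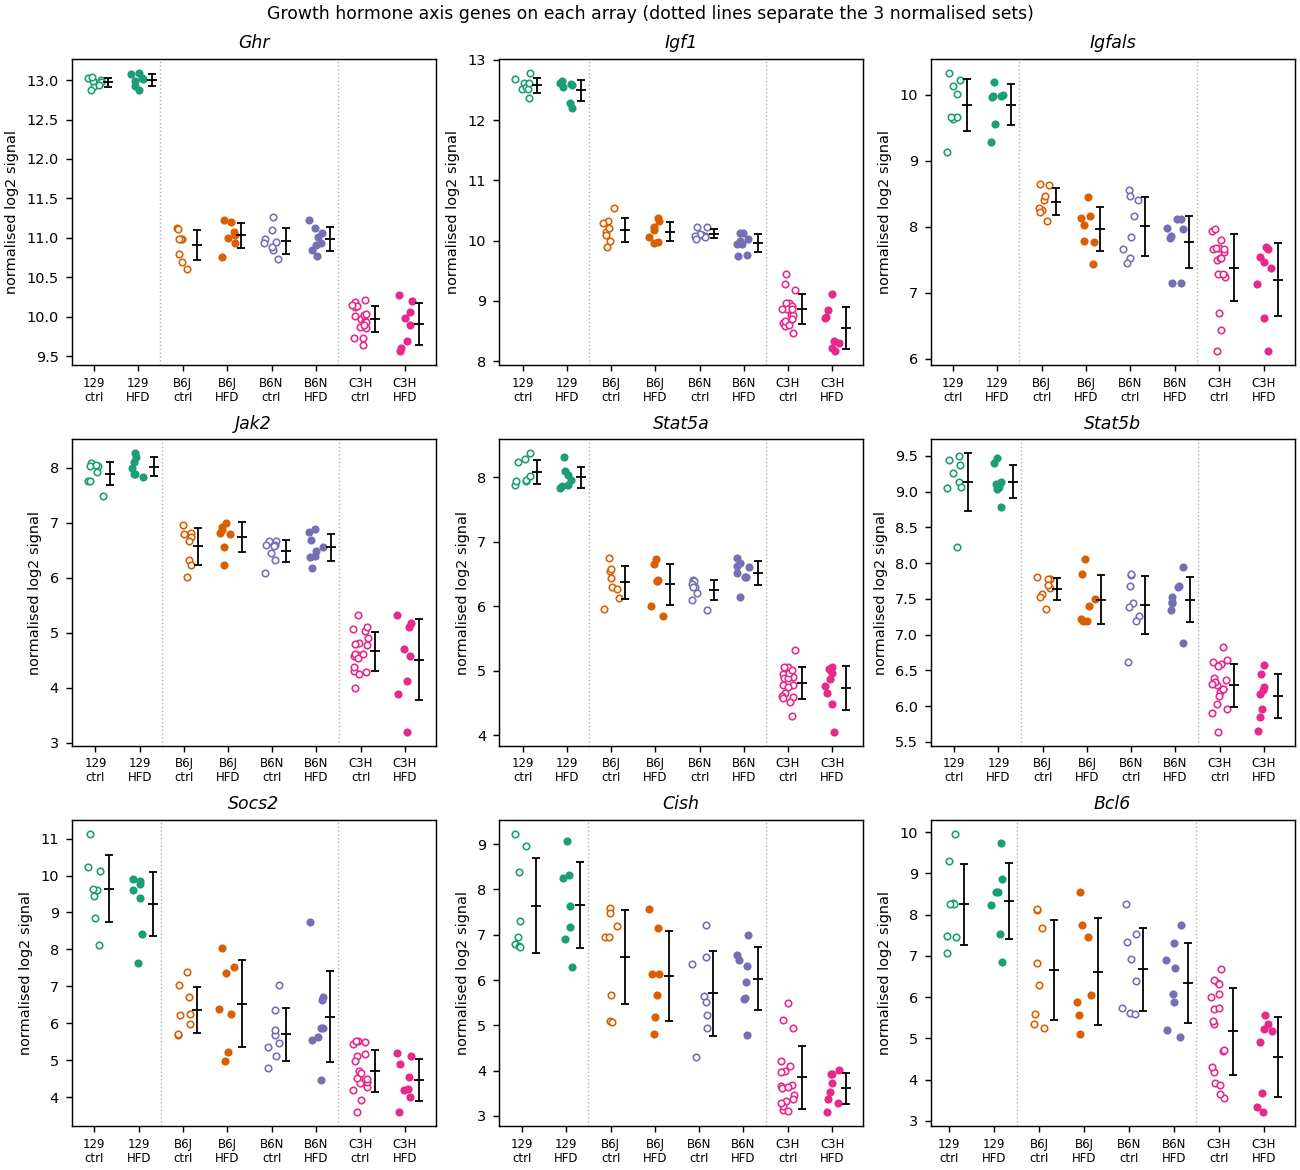
Normalised log2 signal of the 9 genes on each of the 72 arrays (y axis) by strain and diet (x axis); open points are controls, filled points HFD, and the bar beside each group is the mean with its SD. HFD and control arrays overlapped for every gene in every strain, and the groups' ranges ran from 0.93 to 4.27 log2 units for Socs2, Cish and Bcl6 and from 0.17 to 0.98 for Ghr and Igf1.

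HFD did not move any of the 9 genes past the test in any strain. The count of genes with an adjusted p under 0.05 (limma, Benjamini-Hochberg over all genes) was 0 of 9 in 129, where 0.577% of all genes passed. It was also 0 of 9 in B6J, against 0.296% of all genes, in B6N, against 0.918%, and in C3H, against 0.853%. The mean effect over the 4 strains passed for 0 of 9, against 3.16%, and the test of any difference in diet effect between strains for 0 of 9, against 0.125%. At background shares this low, a list of 9 genes with no call does not stand apart from other genes. Without adjustment, the p was under 0.05 for 0 of 9 in 129 and in B6J, for 1 each in B6N (Stat5a) and C3H (Igf1), and for 2 in the mean effect (Igf1 and Igfals). Among all genes that share was 5.48% in 129, 5.78% in B6J, 5.68% in B6N, 8.24% in C3H and 11.1% in the mean. Permutation tests of the 9 genes 1 by 1 in the 4 strains gave 4 of 36 p-values under 0.05 and 0 after adjustment, the lowest at 0.183; the 4 were Stat5a and Igf1 in B6N, Igfals in B6J and Igf1 in C3H. In no strain did the HFD and control arrays of a member lie apart: the count of members without overlap was 0 in all 4 strains, where 0.251% (129), 0.346% (B6J), 0.356% (B6N) and 0.0552% (C3H) of all genes had none.

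The median change of the 9 genes was 0.01 in 129, 0.05 in B6N, -0.03 in B6J and -0.18 in C3H, where the medians of all genes were 0, 0, 0 and 0.01. In C3H all 9 estimates were below 0, from -0.61 to -0.06. In the other strains their signs were mixed, with 6, 3 and 6 of 9 above 0 in 129, B6J and B6N. Leaving out 1 C3H HFD array was enough to turn the sign of a C3H estimate for Jak2 (0.03 without array 3) and for Stat5a (0.02 without array 6).

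**Figure D2:**
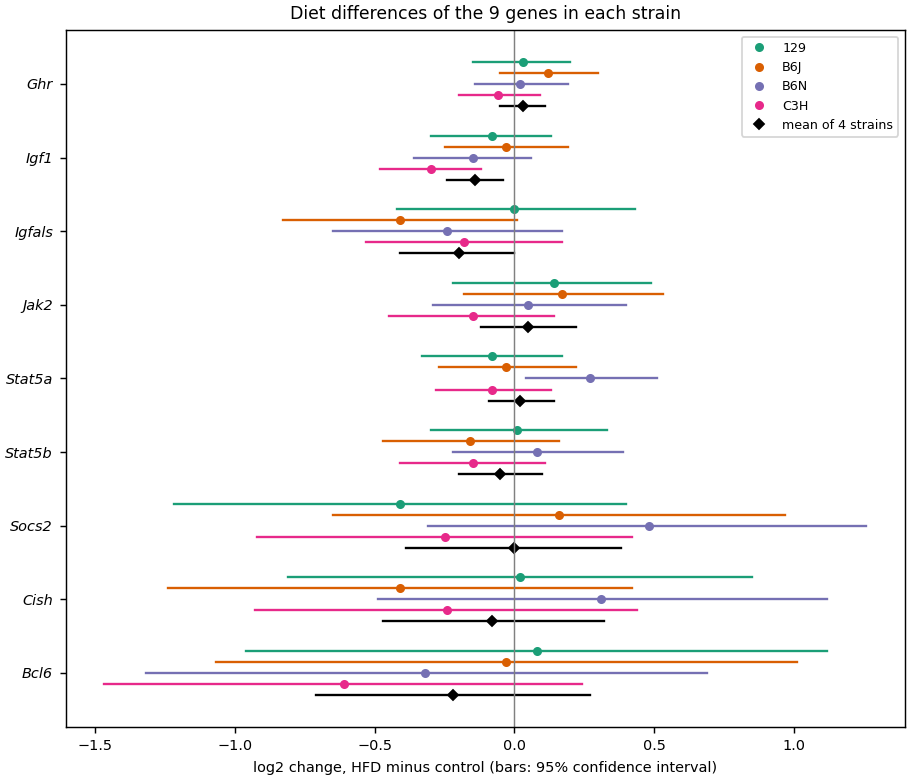
Log2 change from control to HFD (x axis) of the 9 genes (y axis) in each strain and as the mean of the 4 strains, with 95% confidence intervals from the limma fit. The intervals of Ghr and Igf1 are narrow and those of Socs2, Cish and Bcl6 span about 1 log2 unit to either side; the C3H interval of Igf1 (-0.48 to -0.12) lies below 0, but its adjusted p was 0.097.

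Ghr, the receptor, had the lowest SD of the 9 genes over all groups (0.167), although Igf1 was lower in the B6 strains (0.153 against 0.168). In 129 it read 12.87, 12.99 and 13.04 in controls and 12.88, 13.01 and 13.09 on HFD (lowest, median and highest array). In C3H the same values were 9.64, 9.96 and 10.21 in controls and 9.56, 9.95 and 10.27 on HFD. HFD and control arrays covered nearly the same range in both strains. The HFD difference was 0.03 ± 0.09 in 129, 0.02 ± 0.09 in B6N, 0.12 ± 0.09 in B6J and -0.06 ± 0.07 in C3H (log2 change ± SE). The 95% interval of its fold change was 0.902 to 1.15 in 129 and 0.871 to 1.06 in C3H. A change of Ghr mRNA by more than about 1.2-fold therefore lay outside the interval in 129, B6N and C3H, and the upper bound in B6J was 1.23-fold. These bounds speak of mRNA level only.

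Jak2, which encodes the kinase bound to the receptor, was 6.02, 6.7 and 6.96 in B6J controls and 6.23, 6.82 and 6.99 in B6J HFD livers. In C3H it was 3.99, 4.62 and 5.32 in controls and 3.2, 4.64 and 5.32 on HFD. The medians of the C3H groups were nearly equal, while 2 of the 8 HFD arrays lay below all controls. Differences were 0.14 ± 0.18 in 129, 0.05 ± 0.17 in B6N, 0.17 ± 0.18 in B6J and -0.15 ± 0.15 in C3H, with adjusted p from 0.89 to 1 (limma).

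Stat5b, the main STAT5 of male liver, was 8.22, 9.2 and 9.5 in 129 controls and 8.79, 9.1 and 9.47 in 129 HFD livers. The 129 control at 8.22 stood apart from the next array of its group, at 9.05, and the remaining 129 arrays of both diets overlapped. HFD differences of Stat5b were 0.01 ± 0.16 in 129, 0.08 ± 0.15 in B6N, -0.16 ± 0.16 in B6J and -0.15 ± 0.13 in C3H. Its close relative Stat5a was 5.94, 6.3 and 6.41 in B6N controls and 6.14, 6.55 and 6.74 in B6N HFD livers. In B6N, 7 of the 8 HFD arrays lay above all controls and 1 lay among them. The Stat5a difference in B6N was 0.27 ± 0.12, a fold change of 1.21 (95% interval 1.03 to 1.42). Its adjusted p was 0.67 (limma), and the permutation test of that gene alone gave p = 0.00824, adjusted to 0.183 over the 36 tests of 9 genes in 4 strains. In the other strains Stat5a differed by -0.08 in 129, -0.03 in B6J and -0.08 in C3H, and the test of a difference between strains did not pass (F test, p = 0.11, adjusted 1).

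Igf1, which encodes the circulating growth factor made mainly by liver, was lower on HFD by its estimate in all 4 strains. In C3H the controls read 8.46, 8.86 and 9.44 and the HFD livers 8.16, 8.53 and 9.12. In C3H, 4 of the 8 HFD arrays lay below all 18 controls, and the other HFD arrays lay among them. The difference was -0.30 ± 0.09 in C3H, a fold of 0.811 (95% interval 0.717 to 0.917), with p = 0.0012 and adjusted p = 0.097 (limma). In B6N the controls read 10.02, 10.08 and 10.22 and the HFD livers 9.74, 9.97 and 10.13. There 5 of the 8 HFD arrays lay below all controls. The B6N difference was -0.15 ± 0.11, against -0.08 ± 0.11 in 129 and -0.03 ± 0.11 in B6J. The mean over strains was -0.14 ± 0.05, with adjusted p = 0.16 (limma). Permutation tests of Igf1 alone gave p = 0.0203 in C3H and 0.0177 in B6N, both adjusted to 0.183. The SD of Igf1 within groups was 0.283 in C3H and 0.153 in the B6 strains, while the limma fit shares 1 spread over all groups.

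The C3H value of Igf1 was the only strain effect of a member that an alternative brought past the threshold. With the first principal component of each normalised set as a covariate the adjusted p was 0.00094 (limma). That component was computed from deviations from the group means, so the estimate stayed at -0.30 by construction. In that fit 367 genes instead of 170 passed in C3H, so the lower p is no separate support for Igf1. Without C3H HFD array 6, in which Igf1 was highest of its group, the C3H estimate was -0.38 (adjusted p = 0.0084). Without C3H HFD array 7 it was -0.34 (0.046), and without C3H control 17, the lowest control, -0.33 (0.047). Over all alternatives the C3H estimate ran from -0.38 to -0.25, so its sign was the same in each. Igf1 moved with that first component in C3H (r = 0.86 over 26 arrays), and within the arrays on either side of it the difference was -0.19 and -0.45. The change in C3H was not shown to differ from that in other strains (F test, p = 0.22, adjusted 1).

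Igfals encodes the acid-labile subunit that holds IGF1 in its long-lived serum complex. In B6J it was 8.08, 8.34 and 8.65 in controls and 7.43, 8.03 and 8.45 on HFD. The B6J HFD livers lay lower as a group, with overlap. The difference was -0.41 ± 0.21 in B6J, with adjusted p = 0.88 (limma), and the permutation test of this gene alone gave p = 0.0118, adjusted to 0.183. Differences were 0 ± 0.21 in 129, -0.24 ± 0.21 in B6N and -0.18 ± 0.17 in C3H. The mean over strains was -0.20 ± 0.10 (adjusted p = 0.43), so the estimates of both circulating products were below 0 in B6J, B6N and C3H without passing the test.

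Socs2, Cish and Bcl6, the feedback inhibitors and the repressor, varied far more between mice of 1 group than the genes above. The SD within groups was 0.824 for Socs2, 0.842 for Cish and 1.06 for Bcl6 on the log2 scale, more than for 99.8%, 99.8% and 99.9% of all genes, whose median was 0.211. Ghr, at 0.167, and Igf1, at 0.211, were near or below that median. Igfals (0.426), Jak2 (0.358), Stat5b (0.314) and Stat5a (0.242) lay between. The wide spread was seen in each normalised set: the SD of Bcl6 was 0.955 in 129, 1.12 in the B6 strains and 1.04 in C3H, and each of the 3 genes ranked above at least 98.7% of genes in every set.

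Socs2 encodes an inhibitor whose loss gives oversized mice. It was 8.11, 9.62 and 11.13 in 129 controls and 7.64, 9.61 and 9.91 in 129 HFD livers. In B6N it was 4.78, 5.58 and 7.04 in controls and 4.47, 5.87 and 8.74 on HFD, a 19.3-fold range among 8 HFD livers. The groups overlapped across most of their ranges. HFD differences were -0.41 ± 0.41 in 129, 0.48 ± 0.39 in B6N, 0.16 ± 0.41 in B6J and -0.25 ± 0.33 in C3H. Without B6N HFD array 8, the one at 8.74, the B6N value was 0.11. A second Socs2 probe set, with a lower mean (5.44 against 6.31), gave -0.22 in 129, 0.32 in B6N, 0.23 in B6J and -0.15 in C3H. Its deviations followed those of the first with r = 0.84 over 72 arrays (0.60 in C3H).

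Cish encodes the inhibitor CISH, and its gene is among the fastest to respond to STAT5. It was 6.74, 7.13 and 9.23 in 129 controls and 6.28, 7.63 and 9.07 in 129 HFD livers. In B6J it was 5.08, 6.94 and 7.58 in controls and 4.81, 6.14 and 7.56 on HFD. The spread within each of these groups, over 5-fold from lowest to highest array, was larger than any difference between their medians. HFD differences were 0.02 ± 0.42 in 129, 0.31 ± 0.40 in B6N, -0.41 ± 0.42 in B6J and -0.24 ± 0.34 in C3H. In C3H the Cish means lay only 0.68 (controls) and 0.41 (HFD) above the array medians, where array signals are compressed.

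Bcl6 was 7.06, 8.25 and 9.96 in 129 controls and 6.85, 8.54 and 9.73 in 129 HFD livers. In B6J it was 5.25, 6.56 and 8.14 in controls and 5.1, 6.05 and 8.56 on HFD, an 11-fold range among 7 livers. In C3H it was 3.55, 5.38 and 6.69 in controls and 3.21, 5.05 and 5.57 on HFD. High and low arrays occurred on both diets in each strain. HFD differences were 0.08 ± 0.52 in 129, -0.32 ± 0.50 in B6N, -0.03 ± 0.52 in B6J and -0.61 ± 0.43 in C3H. The 95% interval of the fold was 0.514 to 2.17 in 129 and 0.362 to 1.18 in C3H, where a 2-fold fall and no change both lay inside it.

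Over the 72 arrays the levels of these 3 genes were tied to each other, most closely for Cish with Bcl6. The ties were tested over all arrays together, not within each strain or diet. Each array was expressed as its deviation from the mean of its own group, which removes strain and diet. Cish and Bcl6 ran opposite, with Pearson's r = -0.75 and Spearman's rho = -0.75 over 72 arrays. The permutation p of r, with arrays shuffled within groups, was 1e-05, the smallest that 100000 permutations can give, and 6e-05 after adjustment over the 36 pairs of members. For rho the p was also 1e-05, adjusted to 7.2e-05. Cish and Bcl6 lay on opposite sides of their group means in 61 of 72 arrays. The correlation was -0.80 in 129, -0.81 in B6N, -0.81 in B6J and -0.66 in C3H, and was below 0 in 8 of 8 groups, from -0.91 to -0.66.

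The array with the lowest Cish of its group was also the one with the highest Bcl6 in 6 of 8 groups, and the array with the highest Cish was the one with the lowest Bcl6 in 1 of 8. B6N control 1 had the lowest Cish of its group, 4.29, and the highest Bcl6, 8.25. The 1 group in which the highest Cish met the lowest Bcl6 was also B6N controls, where control 7 had the highest Cish, 7.21, and the lowest Bcl6, 5.6. Without the 2 arrays farthest from the median of Cish, r was -0.76. Leaving out any 1 array gave -0.76 to -0.74, an alternative added after seeing the data. Within the arrays on either side of the first principal component of each set r ran from -0.86 to -0.60, and with that component removed it was -0.75.

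**Figure D3:**
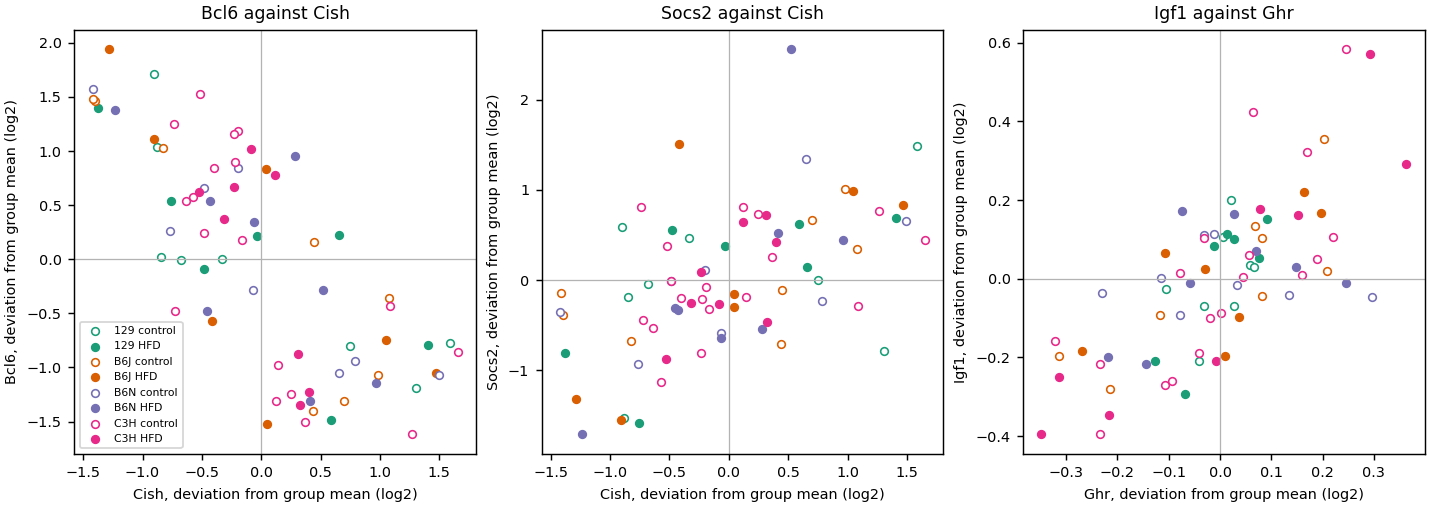
Deviation of each of the 72 arrays from the mean of its strain and diet group, in log2 units, for Bcl6 against Cish, Socs2 against Cish and Igf1 against Ghr; colours are strains, open points controls and filled points HFD. Bcl6 falls as Cish rises (r = -0.75), Socs2 rises with Cish (r = 0.54) and Igf1 rises with Ghr (r = 0.71), over a far smaller range of values.

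Socs2 rose and fell with Cish, with r = 0.54 and rho = 0.55 (permutation p = 1e-05 for both, adjusted 6e-05 and 7.2e-05). The correlation was above 0 in 8 of 8 groups, and both genes lay on the same side of their means in 52 of 72 arrays. Against Bcl6, Socs2 had r = -0.46 and rho = -0.45 (permutation p = 9e-05 and 0.00017, adjusted 4e-04 and 0.00068), below 0 in 8 of 8 groups. Without the 2 farthest arrays these were 0.53 and -0.47, and with the first component removed 0.51 and -0.42. Within the sides of the first component Socs2 with Cish ran from 0.06 (9 arrays of 129) to 0.76 (6 arrays of 129), and Socs2 with Bcl6 from -0.70 to -0.04 in the same parts. The second Socs2 probe set gave 0.47 with Cish and -0.39 with Bcl6. Acinar marker levels had correlations with Cish of 0.28, -0.20 and 0.43 in 129, B6 and C3H, with Bcl6 of -0.15, 0.25 and -0.45, and with Socs2 of -0.22, -0.47 and 0.06. Their part in the ties between the 3 genes was not tested.

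The start regions of Cish and Bcl6 are shown because these 2 genes gave the tightest tie, and that of Igfals for contrast, since it varied less and did not follow either of them (r = 0.03 with both). STAT proteins bind the palindrome TTCNNNGAA, which reads the same on both strands. The RefSeq promoter table (GRCm38.p6, 250 bases before to 50 after each start) held 14 windows for 8 of the 9 genes, and Socs2 had no entry. The stretches below are written 5′ to 3′ on the gene's strand, with the palindrome in capitals; position 1 is the first base of the transcript.
Cish: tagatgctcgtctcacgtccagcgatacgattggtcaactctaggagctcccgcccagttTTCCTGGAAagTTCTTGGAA
Bcl6: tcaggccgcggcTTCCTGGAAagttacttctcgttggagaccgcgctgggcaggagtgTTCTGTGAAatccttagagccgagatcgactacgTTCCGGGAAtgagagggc
Igfals: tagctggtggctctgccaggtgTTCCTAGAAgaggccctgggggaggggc
The Cish stretch (chr9:107296599-107296678, plus strand) runs from position -60 to 20 and holds 2 matches, at 1 to 9 and 12 to 20. The Bcl6 stretch (chr16:23981354-23981463, minus strand) runs from -180 to -71 of 1 of the listed Bcl6 starts and holds 3 matches. The Igfals stretch (chr17:24878151-24878200, plus strand) runs from -80 to -31 of 1 of the listed Igfals starts and holds 1. A window of another Igfals start and that of another Bcl6 start each held 1 further match, not shown.

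Matches to the palindrome were found in 5 of the 14 windows, those of Cish, Bcl6 and Igfals, and in 8.3% of the 32851 windows of all genes. A window with 2 or more matches, as for Cish, made up 0.457% of all windows, and 1 with 3 or more, as for Bcl6, 0.0335%. The windows of Igf1, Ghr, Jak2, Stat5a and Stat5b held no match, which says only that these letters are absent there. Igfals, with a match, had r = 0.03 with Cish and 0.07 with Socs2, and Igf1, with none, had 0.25 and 0.33. For Igf1 with Cish the strains differed, with r = 0.70 in 129, 0.14 in B6N, 0.61 in B6J and -0.04 in C3H, a difference that was not tested.

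Over all arrays, a different tie joined the receptor, the kinase and Igf1, but not in every strain. Ghr correlated with Igf1 at r = 0.71 (rho = 0.68) and with Jak2 at r = 0.72 (rho = 0.66), and Igf1 with Jak2 at r = 0.62 (rho = 0.55). The permutation p was 1e-05 for each of these values but the last rho, for which it was 3e-05, and the adjusted values were at most 0.00018. For Ghr with Igf1, r was 0.67 in 129, 0.25 in B6N, 0.76 in B6J and 0.82 in C3H. For Ghr with Jak2 it was 0.19 in 129 and 0.78, 0.91 and 0.71 in B6N, B6J and C3H, and for Igf1 with Jak2 0.06 in 129 and 0.47, 0.61 and 0.70 in the same 3. In 129, Jak2 was not closely tied to either gene. These genes also correlated with the first principal component of the arrays, which held 33.3%, 29.4% and 26.9% of the variance within groups in 129, B6 and C3H. The correlation with that component was 0.88 for Ghr, 0.90 for Jak2 and 0.48 for Igf1 in B6, and 0.74, 0.46 and 0.86 in C3H. In 129 Jak2 had the opposite sign, at -0.45, against 0.43 for Ghr and 0.58 for Igf1. The 129 component lay mostly on control 6, at 0.832, while the other 129 arrays lay between -0.348 and 0.152. That array had the lowest Igfals, Jak2 and Stat5b of its group and the highest Igf1. Correlations with the component in 129 therefore lean on 1 array. In the B6 strains the first component went with replicate number. Its high side held B6J controls 1 to 4, B6J HFD 1 to 5, B6N controls 1 to 4 and B6N HFD 1 to 3. The higher numbers of each group lay on its low side. The labels do not say what the numbers mark. Permutations within groups did not keep this order, and its part in the ties was not tested. With the component removed, r fell to 0.46 for Ghr with Igf1, 0.54 for Ghr with Jak2 and 0.51 for Igf1 with Jak2. Whether these ties exceed those among other genes that follow the component was not tested. In the smaller part of the 129 arrays, Ghr with Igf1 had r = 0. Igfals and Stat5b were tied at r = 0.60, and at 0.53 with the component removed. Their own correlations with it were -0.73 and -0.85 in 129, -0.77 and -0.50 in C3H, and -0.14 and 0.31 in B6.

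Of the 36 pairs of members, 20 passed an adjusted permutation p of 0.05, 12 with r above 0 and 8 below. Pairs of other genes were not put through this test, so the count has no background share and does not set the members apart. With the first component removed 15 passed, 11 above and 4 below, and after quantile normalisation within each set 22 passed, 11 and 11. Cish with Bcl6 was at -0.75 in all 3 settings. The correlations of Cish, Socs2 and Bcl6 with the first component were between -0.33 and 0.51 in the 3 sets.

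**Figure D4:**
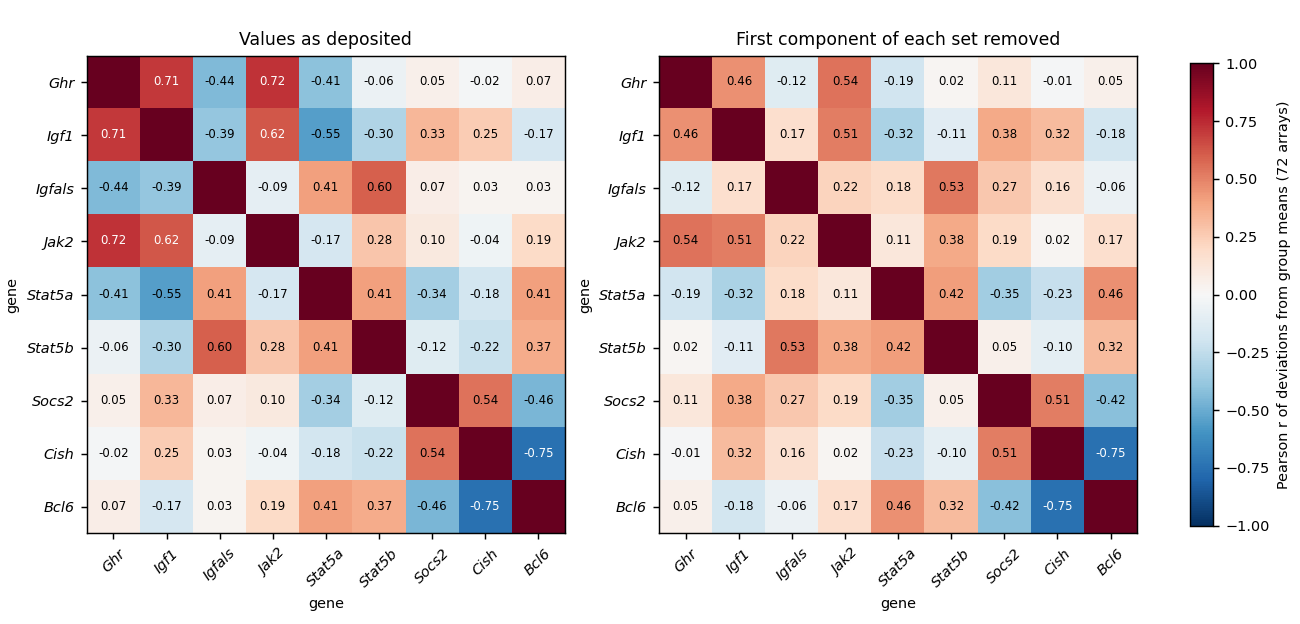
Pearson's r of deviations from group means for each pair of the 9 genes over 72 arrays, with the values as deposited (left) and after removing the first principal component of each normalised set (right). The block of Cish, Socs2 and Bcl6 is nearly the same in both (-0.75 for Cish with Bcl6), while Ghr with Igf1 drops from 0.71 to 0.46 and Igf1 with Igfals turns from -0.39 to 0.17.

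Outside the axis, the genes most like Cish among the 10308 other genes above the array medians in all 3 sets were Foxq1 (r = 0.74), Onecut1 (0.71) and Gadd45g (0.70). Foxq1 and Onecut1 encode transcription factors, and Gadd45g a growth arrest protein. Most like Socs2 were Plcxd2 (0.74), Slc25a30 (0.69) and Nrep (0.68), all above its r with Cish (0.54). Most like Igf1 were Abce1 (0.86), Adh5 (0.84) and C9 (0.84), the last a terminal complement component. All were above its r with Ghr (0.71) and with Jak2 (0.62). At the other end of the ranking, the gene with the lowest r with Cish was Bcl6, followed by Frmd4b at -0.60. For Socs2 the lowest were Spns2 (-0.54) and Tcf7l2 (-0.50), both below its r with Bcl6 (-0.46). That look at the lowest values was added after the correlation of Cish and Bcl6 had been seen. These are descriptions over 72 arrays that share normalisation within each set.

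B6N and B6J, which are substrains of 1 origin and were normalised together, could be compared in level. In controls the member with the largest difference was Cish, at 4.29, 5.58 and 7.21 in B6N and 5.08, 6.94 and 7.58 in B6J. Socs2 was 4.78, 5.58 and 7.04 in B6N controls and 5.67, 6.25 and 7.38 in B6J controls. Both had lower medians in B6N, and both overlapped over most of their range. The difference, B6N minus B6J, was -0.79 ± 0.40 for Cish (adjusted p = 0.73, limma) and -0.67 ± 0.39 for Socs2 (0.76). None of the 9 genes passed in controls, where 0.0351% of all genes did, or on HFD, where 0.191% did. On HFD the differences were -0.07 ± 0.42 for Cish and -0.35 ± 0.41 for Socs2, and the largest of any member was no more than 0.35.

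Genes around the axis were read from lists chosen for their place in the pathway, with earlier results of these arrays known. Among all genes, 0.577%, 0.296%, 0.918% and 0.853% passed in 129, B6J, B6N and C3H, and 3.16% in the mean over strains. A single call in a list of this kind does not by itself set the list apart. Of 13 genes for IGF binding proteins and for IGF and insulin receptors and substrates, only Igfbp1 passed, and only in B6N. Igfbp1 encodes a short-lived IGF binding protein that insulin lowers. It was 5.29, 6.62 and 6.78 in B6N controls and 6.4, 7.39 and 8.52 in B6N HFD livers, and rose by 1.03 ± 0.27 (adjusted p = 0.042, limma). In 129 its estimate was -0.56, and the test of a difference between strains gave p = 0.0017, adjusted to 0.42. Of 10 other cytokine receptor and JAK-STAT genes, 1 passed, Ifngr2, a subunit of the interferon gamma receptor, which rose in the mean over strains (0.20 ± 0.05, adjusted p = 0.0049). Of 14 inhibitors and phosphatases of the pathway, among them Socs1, Socs3 and Ptpn1, 0 passed in any strain or in the mean, and 3 had an unadjusted p under 0.05 in the mean. Of 12 liver transcription factors downstream of growth hormone, 0 passed, with 2 such p-values in the mean, where 11.1% of all genes had one.

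Targets that mark the male pattern of growth hormone fell in part. Of 21 male-biased genes measured, those that fell numbered 0 in 129, 1 in B6J, 6 in B6N, 9 in C3H and 11 in the mean, and 0 rose. The other 10 did not pass in the mean, and 4 of the 21 mean estimates were above 0. Among all genes, 0.135%, 0.166%, 0.281%, 0.336% and 1.14% fell. Gstp1, a glutathione S-transferase, fell by 0.68 ± 0.13 in B6J, by 0.94 ± 0.13 in B6N and by 0.73 ± 0.11 in C3H (adjusted p = 0.0026, 5.2e-07 and 4.2e-06, limma). C8b, a complement component, fell by 0.87 in B6N and 0.74 in C3H, and Cyp7b1, an oxysterol hydroxylase, by 0.68 and 0.83. Egfr, the epidermal growth factor receptor, fell by 1 ± 0.20 in C3H (adjusted p = 0.0015), and Selenbp2 by 1.05 ± 0.23 in B6N (0.004). The B6N count was 3 without control 5, control 7, HFD 5 or HFD 6, and the C3H count 5 without HFD 2 or HFD 3. The B6N count was also 3 with each array centred on its median or with B6N fitted alone, and the C3H count was 4 with array weights and 5 with C3H fitted alone.

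**Figure D5:**
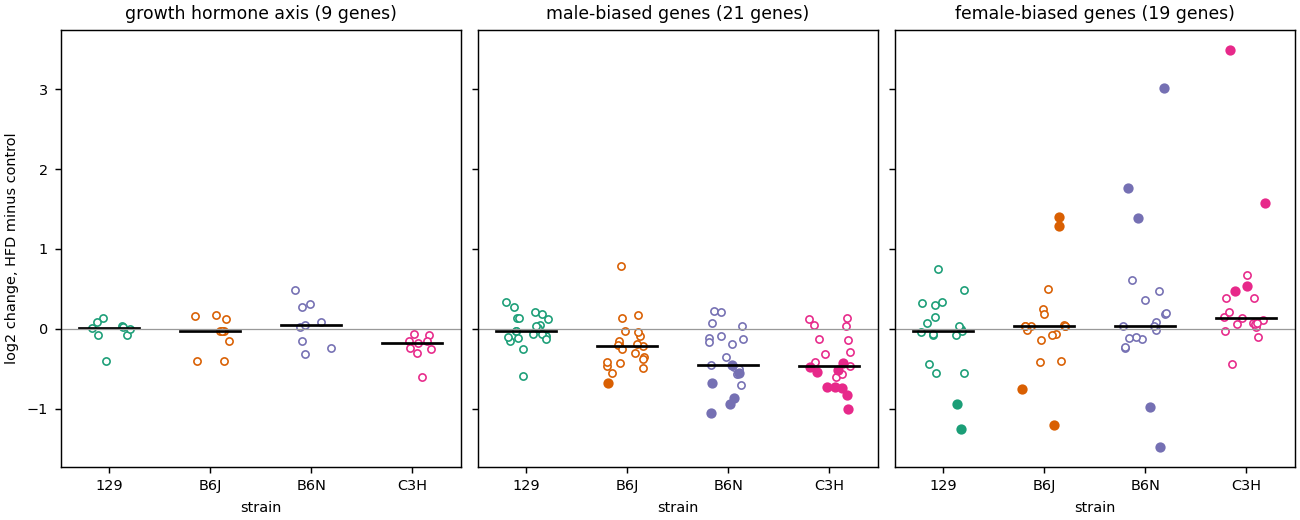
Log2 change from control to HFD (y axis) by strain (x axis) for the 9 axis genes, 21 male-biased and 19 female-biased liver genes; filled points passed an adjusted p of 0.05, and the bar is the median of the list. The axis genes have 0 filled points, the male-biased genes have medians of -0.45 in B6N and -0.47 in C3H, and the female-biased genes have calls in both directions.

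Female-biased genes changed in both directions. Of 19 measured, 2 fell and 0 rose in 129. In B6J 2 rose and 2 fell, in B6N 3 rose and 2 fell, and in C3H 4 rose and 0 fell. In the mean effect 5 rose and 3 fell. The shares of all genes that rose were 0.441%, 0.13%, 0.637%, 0.517% and 2.02%. Those that fell were 0.135%, 0.166%, 0.281%, 0.336% and 1.14%, in the same order. Abcd2, a peroxisomal fatty acid transporter, rose by 1.29 ± 0.31 in B6J, 1.76 ± 0.30 in B6N and 1.57 ± 0.25 in C3H (adjusted p = 0.033, 4.5e-05 and 1.8e-05, limma). Cyp2b9, a cytochrome P450 also controlled by the xenobiotic receptor CAR, rose by 3.02 ± 0.41 in B6N and 3.49 ± 0.34 in C3H. Its values were 0.07 in 129 and 0.04 in B6J. On both diets its means lay below the array medians in 129 (4.66 and 4.72) and B6J (3.29 and 3.34), where signals are compressed. The B6N and C3H control means (4.11 and 2.62) also lay below. Cyp3a44, another P450, fell by 1.26, 1.20 and 1.48 in 129, B6J and B6N but rose by 0.53 in C3H. Probe sets of such close P450 relatives can share signal. The C3H count of rises was 2 without HFD 1, HFD 2 or HFD 8. The B6N count was 5 without HFD 8, and the 129 count of falls 1 without HFD 4. In B6J, leaving out 1 array lowered either count to 1 for most arrays. With array weights 5 fell and 1 rose in 129, and 2 rose in C3H.

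Of 8 lipid genes that rise when liver growth hormone signalling is lost, 3 rose in B6N, 0 changed in 129 and B6J, and 1 rose and 1 fell in C3H. Among all genes, 0.637% rose in B6N, and 0.517% rose and 0.336% fell in C3H. Cidec, a lipid droplet protein, rose by 1.04 ± 0.16 and Mogat1, which makes diacylglycerol, by 0.90 ± 0.14 in B6N (adjusted p = 9.7e-06 and 1.3e-05, limma). The Mogat1 means in B6N, 3.49 in controls and 4.38 on HFD, lay below the array medians, where signals are compressed. Rises in B6N numbered 2 after quantile normalisation, with arrays centred on their medians, with array weights or with B6N fitted alone. With array weights 1 rose in B6J. Cd36, a fatty acid receptor, rose by 1.71 ± 0.23 in C3H (1.5e-07), where Lpl, lipoprotein lipase, fell by 0.99 ± 0.14 (1.2e-06). Macrophage markers rose in 129, with 6 of 14 passing against 0.441% of all genes, and 0 of 14 passed in B6J, B6N or C3H. Their unadjusted p was under 0.05 for 6, 0 and 1 of 14 in those 3 strains (limma), and their median change was 0.52 in 129, 0.04 in B6N, 0.30 in B6J and 0.07 in C3H. The mean marker level was 8.6 to 9.12 among 129 controls and 8.93 to 10.1 among 129 HFD livers. In that strain the 9 axis genes had a median change of 0.01.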

How the data were processed

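The deposited values were log2 signals per probe set, made by the authors on Mouse Gene ST arrays by RMA, with Affymetrix Expression Console in version 1.1 according to the submitters' processing notes. That method corrects for background and equalises the distributions of arrays, and low signals are compressed. With 3 ranges of array medians the values were treated as 3 separately normalised sets. Of 35556 probe sets, 21789 carried 1 gene symbol. The model for 19938 genes, in limma 3.58.1 under R 4.3.3, held 8 group means over 72 arrays (64 residual degrees of freedom), two-sided, adjusted by Benjamini-Hochberg over all genes and called under 0.05. Values are log2 changes ± SE. The fit was tested on simulated data. Correlations used deviations from group means and two-sided permutations within groups. The labels do not tell which mice shared a litter or day, so a p-value reflects only the spread among these mice, whose number limits precision. The members and lists were chosen with earlier results of these data known. Named list genes passed a test, at most 4 per list and contrast by size of change, and at most 2 per cell type list; likeness was ranked for Socs2, Cish and Igf1. Alternatives were other normalisations, array weights, a replicate block, covariates, other probe sets and omitted arrays. Arrays of the 2 diets with the same replicate number correlated at -0.22 to 0.3 in 129 and -0.29 to 0.5 in B6J. The range was 0.1 to 0.46 in B6N and -0.27 to 0.19 in C3H. Values over 0.1 numbered 6 of 7, 5 of 7, 7 of 8 and 1 of 8 in the same order. Same-number arrays thus shared some variation in 129, B6J and B6N but little in C3H. The main fit has no block, and a fit with one was an alternative.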

Additional observations from a re-analysis of the deposited data

Results flagged for a closer look

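Stat5b on 129 control array 6, at 8.22, lay far below the next lowest array of its group, at 9.05. Of the 63 groups of 7 or 8 arrays examined for the 9 genes, this was the only 1 set apart in this way, where chance alone would flag about 1 in 20. The same array was the one 129 control on the far side of the first principal component. Its value there was 0.832, and the other 129 arrays lay between -0.348 and 0.152. Without control 6 the Stat5b difference in 129 was -0.12, against 0.01 with it.

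The diet effect differed between strains for 5 of the listed target genes, by the F test of the difference itself (limma, adjusted over all genes). These were Cyp3a44 (adjusted p = 1.3e-10), Cyp2b9 (1.2e-06), Cyp17a1 (0.00058), Lpl (0.0043) and Slco1a4 (0.047). Cyp17a1, a steroid hydroxylase, changed by 1.4 in B6J and 1.39 in B6N but by 0.30 in 129 and -0.03 in C3H. Its C3H means, 3.28 in controls and 3.25 on HFD, lay near the array medians (3.1 to 3.28), where signals are compressed. Cyp2b9 means lay below the array medians on both diets in 129 and B6J. Slco1a4, an organic anion transporter, fell by 0.94 in 129 and 0.98 in B6N, while its C3H estimate was above 0, at 0.21. Lpl fell by 0.99 in C3H, while its 129 estimate was above 0, at 0.25. None of the 9 axis genes differed between strains by this test.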

How the results depend on the processing

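The count of members called stayed at 0 of 9 under every alternative run in 129, B6J, B6N, between strains and between B6N and B6J. In C3H it was 1 with the first principal component as a covariate, and 0 to 1 when 1 array was left out. In the mean effect it was 1 with array weights and 1 with that component, and 0 to 1 with an array left out. As a covariate that component could not change an estimate, only its SE, since it was computed from deviations from group means. The gene was Igf1 each time, and for the mean effect its value was -0.15 (adjusted p = 0.041) with weights, -0.14 (0.0057) with the component and -0.16 (0.048) without C3H HFD array 6. The fit with the replicate block (estimated correlation 0.1) called 0 members, and in this fit 175 genes instead of 115 passed in 129 and 41 instead of 25 between strains.

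In settings other than omitted arrays, the largest estimate to turn its sign was Socs2 between substrains on HFD, -0.35 as reported and 0.16 with weights. With quantile normalisation within sets the values were, in 129, -0.06 (Igfals), -0.05 (Stat5b) and -0.03 (Cish), in B6N -0.02 (Ghr), and 0 for the mean effect of Stat5a and for Igf1 between control substrains. With each array centred on its median, Bcl6 (controls) and Stat5b (HFD) were at -0.02 between substrains. With array weights, Igfals was -0.01 and Stat5b -0.13 in 129; Stat5a was 0.03, Socs2 -0.14 and Bcl6 0.29 in B6J; Ghr was 0 and Jak2 -0.02 in B6N. Between substrains weights gave -0.26 (Bcl6, controls), -0.08 (Stat5b, HFD), 0.16 (Socs2, HFD) and 0.25 (Cish, HFD). With the acinar level as covariate, Cish in 129 and Bcl6 between control substrains were 0, and the mean effect of Socs2 was 0.07. The cause was not tested.

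Leaving out 1 array turned the sign of these estimates, whose ranges in 129 were -0.1 to 0.1 (Igfals), -0.12 to 0.07 (Stat5b), -0.21 to 0.25 (Cish) and -0.15 to 0.33 (Bcl6). In B6J they were -0.07 to 0.02 (Igf1), -0.09 to 0.06 (Stat5a), -0.09 to 0.42 (Socs2) and -0.36 to 0.22 (Bcl6). In B6N they were -0.01 to 0.07 (Ghr), -0.01 to 0.11 (Jak2) and -0.03 to 0.17 (Stat5b), and in C3H -0.27 to 0.03 (Jak2) and -0.12 to 0.02 (Stat5a). The mean effect of Socs2 ran from -0.1 to 0.06. Between substrains the ranges were -0.21 to 0.23 (Bcl6, controls), and on HFD -0.06 to 0.1 (Stat5b), -0.28 to 0.18 (Cish) and -0.52 to 0.05 (Bcl6).

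Counts over all genes moved by more than 1.5 times in several settings. Fitted on its own arrays, 129 gave 41 genes, B6J 95 and C3H 93. Array weights gave 576 in 129, 129 in B6J, 105 in C3H, 347 between substrains on HFD and 71 between strains. The first component gave 256, 135, 277 and 367 in 129, B6J, B6N and C3H, 1039 in the mean, 19 and 98 between substrains (controls and HFD) and 53 between strains. Bright genes alone gave 72 in 129, and the acinar covariate 28 and 67 between substrains. Single arrays moved such counts to 69 in 129 (without HFD 6), 38 in B6J (without control 5), 38 between strains (without 129 HFD 2) and 22 to 25 between substrains on HFD (without B6J HFD 3, B6N HFD 2 or B6N HFD 5). Falls of male-biased genes numbered 3 to 9 in B6N and 4 to 11 in C3H over the settings other than omitted arrays. Over the same settings the female-biased genes had 0 to 1 rises and 1 to 5 falls in 129, 2 to 3 and 1 to 2 in B6J, 3 to 4 and 2 in B6N, and 2 to 5 and 0 in C3H.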
